A study of Arabidopsis thaliana with 6 samples.

Results

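The 10 genes described here code for WRKY transcription factors of plant defence and leaf senescence: WRKY18, WRKY33, WRKY38, WRKY40, WRKY46, WRKY53, WRKY54, WRKY60, WRKY62 and WRKY70. They are 10 of the 28387 genes measured and 10 of the 72 WRKY genes measured. The set was picked from the comparison reported below, because WRKY40 and WRKY53 were lower in the mutant, and it was completed with WRKY genes of related function. The differences between the lines in these 10 genes are therefore given as a description, without a test of their own. WRKY proteins bind W-box motifs in promoters, often including those of their own and of other WRKY genes. In leaves many of them are switched on within minutes to hours of pathogen attack, wounding or salicylic acid treatment, and several also time the onset of leaf senescence. Some activate and others repress their targets, so that pairs and trios of WRKY proteins can act against each other on one promoter.

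The leaf transcriptome of Arabidopsis thaliana at 3 weeks of age was compared between the insertion line atpip1;2-1 and the wild type N-60000, with 3 arrays for each line and RNA of 5 plants pooled on each array. The line atpip1;2-1 carries a T-DNA insertion in PIP1;2, an aquaporin gene of the plasma membrane, and it is the 1 mutant line studied, so an effect of the insertion and any other difference of that line cannot be told apart. Both lines were grown in a greenhouse with a 12 h day at 370 µmol per mol CO2 and 70 to 80 µmol per square metre and second of light, and no infection or other treatment is named in the labels. Values are log2 expression values after RMA (robust multi-array average), 1 per gene and array, and a log2 difference, always mutant minus wild type, of 1 is a 2-fold difference. A gene was called when its adjusted p was under 0.05 in limma's moderated test across all genes.

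The targeted gene was low on all arrays labelled as mutant: PIP1;2 (AT2G45960) had 8.73, 9.14 and 8.74 in the wild type against 5.16, 5.51 and 5.18 in the mutant. Over all genes 44 were called lower and 53 higher in the mutant. The leaf markers RBCS1A and RCA, for Rubisco and its activase, had values between 10.3 and 10.9 on the 6 arrays, while the array medians lay between 3.78 and 3.84. Of the 16 markers of leaf, root, flower, vascular tissue and guard cells none was called by limma (4 had an unadjusted p under 0.05, against 12.2% of all genes). Summed over its 5 genes, the root list lay between 4.51 and 4.81 in the mutant and between 4.60 and 4.83 in the wild type (log2 of the summed linear values), and all 5 had means under the median gene. The leaf list was higher in the mutant, at 12.19 to 12.20 against 11.93 in the wild type. Its genes differed in size of change, LHCB1.3 with a log2 difference of 0.68 (SE 0.16) and RCA with 0.27 (SE 0.16). RBCS1A (0.15, SE 0.16) and LHCB2.1 (0.07, SE 0.15) overlapped between the lines. The flower list, whose genes AP3 and AG were dim, was lower in the mutant, at 3.00 to 3.28 against 3.38 to 3.75. The vascular list was higher in the mutant, at 7.63 to 7.86 against 7.24 to 7.58. Its genes went opposite ways, SUC2 with a log2 difference of 0.33 (SE 0.17) and XCP1 with -0.41 (SE 0.16). The guard cell list overlapped, at 6.96 to 7.31 in the mutant against 6.71 to 7.30. The part of these marker levels in the WRKY values was not tested. Fewer cells of a type and less RNA per cell cannot be told apart in such bulk leaf samples.

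WRKY40, WRKY18 and WRKY60 form a clade of their own, group IIa, whose proteins bind each other and act partly in overlap as regulators of defence and abscisic acid responses. WRKY40 (AT1G80840, chromosome 1), a repressor of defence genes that is itself quickly induced by pathogens, had values of 5.15, 5.49 and 5.63 in the wild type against 3.79, 4.07 and 4.12 in the mutant. The lowest wild type array stood 1.03 above the highest mutant array. Its mean fell from 5.42 ± 0.25 to 3.99 ± 0.18 (SD, n = 3). That is a log2 difference of -1.43 (SE 0.18), or 2.69 times less signal, the largest difference among all 72 WRKY genes in the downward direction. WRKY18 (AT4G31800, chromosome 4), its partner in repression, had 4.67, 4.96 and 4.80 in the wild type against 4.17, 4.26 and 4.42 in the mutant. The arrays of the lines were apart here too, by 0.25, with a log2 difference of -0.53 (SE 0.16). WRKY60 (AT2G25000, chromosome 2), the third member of the clade and in other work a target of WRKY18 and WRKY40, had 3.36, 3.21 and 2.80 in the wild type against 3.24, 3.84 and 3.12 in the mutant. These arrays overlapped, and the log2 difference of 0.28 (SE 0.23) had the opposite sign to those of WRKY18 and WRKY40. One clade thus held the member with the lowest and the member with the highest log2 difference of the 10.

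**Figure D1:**
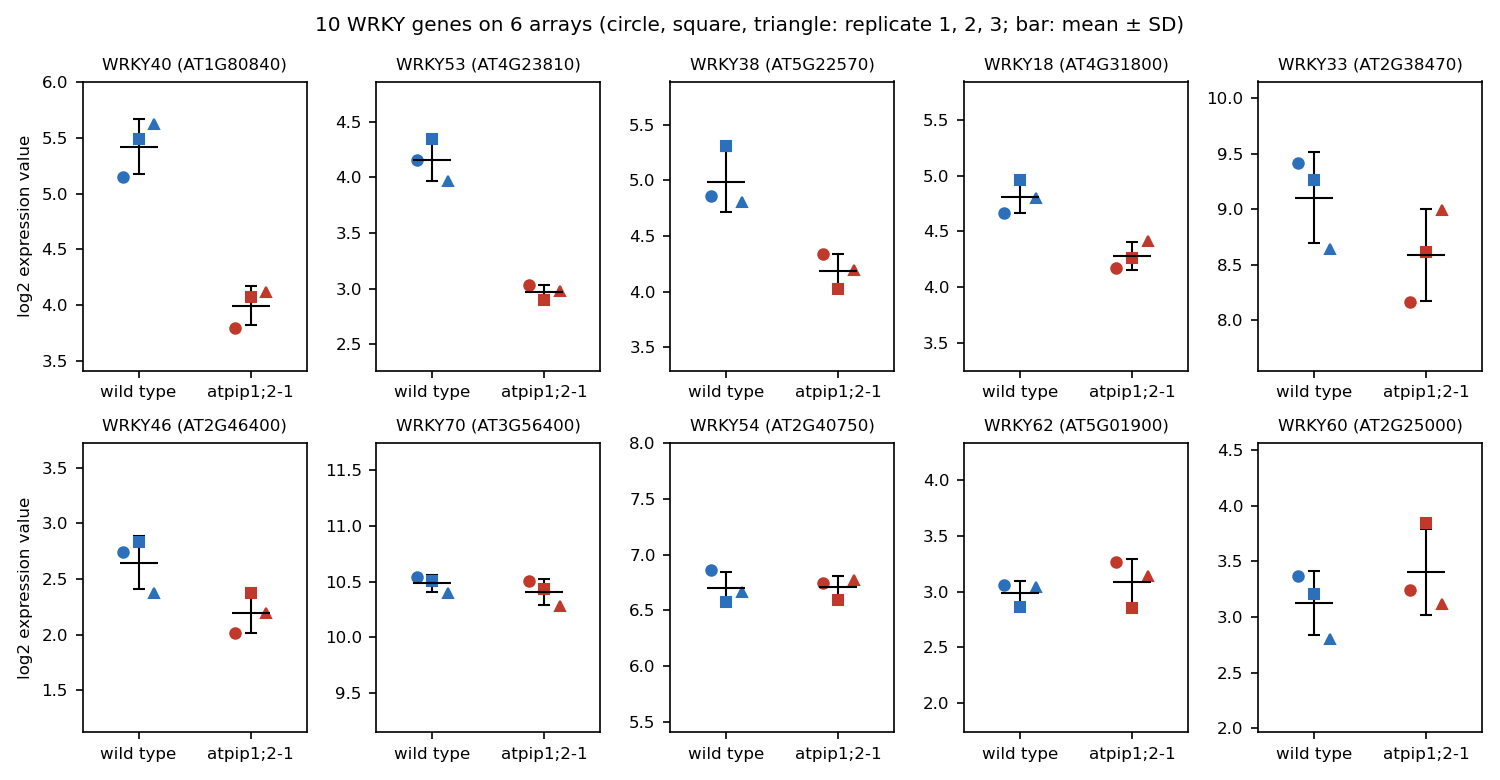
Log2 expression values of the 10 WRKY genes on each array (vertical axis), with wild type arrays in blue and atpip1;2-1 arrays in red; symbols mark replicates 1, 2 and 3, and bars show mean ± SD (n = 3). Every panel spans the same range on the log2 scale, so distances can be compared between panels: WRKY40 and WRKY53 have gaps of 1.03 and 0.94 between the lines, WRKY38 and WRKY18 smaller gaps, and the other 6 genes overlap.

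Of the group III genes, a clade rich in factors that respond to salicylic acid, WRKY53 differed most. WRKY53 (AT4G23810, chromosome 4), an activator of leaf senescence that is induced at its onset, had 4.15, 4.35 and 3.97 in the wild type against 3.03, 2.90 and 2.98 in the mutant. The mutant arrays lay close together, the highest of them 0.94 below the lowest wild type array. From 4.15 ± 0.19 the mean fell to 2.97 ± 0.07 (SD, n = 3). The log2 difference was thus -1.19 (SE 0.16), or 2.27 times less signal. WRKY46 (AT2G46400, chromosome 2), which acts with WRKY53 and WRKY70 in basal defence, had 2.74, 2.83 and 2.37 in the wild type against 2.01, 2.38 and 2.20 in the mutant. Its lines touched, with the highest mutant array above the lowest wild type array by only 0.0014, and the log2 difference was -0.45 (SE 0.18).

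WRKY38 and WRKY62 are a pair of close relatives that act together against basal defence, and their log2 differences had opposite signs. WRKY38 (AT5G22570, chromosome 5) had 4.85, 5.31 and 4.80 in the wild type against 4.34, 4.03 and 4.20 in the mutant. The lines were apart by 0.47, and the log2 difference was -0.80 (SE 0.19), the third lowest of the 10. WRKY62 (AT5G01900, chromosome 5) had 3.06, 2.86 and 3.04 in the wild type against 3.27, 2.85 and 3.14 in the mutant. Its arrays overlapped throughout, with a log2 difference of 0.10 (SE 0.17). The difference between the pair was not tested, since both were chosen with these values known.

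WRKY54 and WRKY70 hold back leaf senescence together, and WRKY70 is also known for shifting the balance from jasmonate towards salicylic acid responses. WRKY70 (AT3G56400, chromosome 3) had 10.54, 10.51 and 10.40 in the wild type against 10.50, 10.44 and 10.28 in the mutant, a log2 difference of -0.08 (SE 0.15). WRKY54 (AT2G40750, chromosome 2) had 6.86, 6.57 and 6.66 in the wild type against 6.75, 6.59 and 6.77 in the mutant, with a log2 difference of 0.00 (SE 0.16). Both overlapped between the lines and had the smallest spread among the 10, with a pooled SD of 0.10 for WRKY70 and 0.13 for WRKY54, where the median over all genes was 0.23. The sign of the WRKY54 value is not settled: it was below 0 in 5 of 14 alternative settings. The 14 include filters, changes of moderation and a replicate block, which cannot change a log2 difference here.

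WRKY33, the group I member, activates genes of camalexin and ethylene synthesis and is a substrate of the kinases MPK3 and MPK6. WRKY33 (AT2G38470, chromosome 2) had 9.41, 9.26 and 8.64 in the wild type against 8.16, 8.62 and 8.99 in the mutant. Its log2 difference of -0.51 (SE 0.26) was close in size to that of WRKY18, but the lines overlapped, because wild type replicate 3 was low and mutant replicate 3 high. With a pooled SD of 0.41 it was the most variable of the 10, and 89.8% of all genes varied less.

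Counted together, 7 of the 10 genes had a lower mean in the mutant, where 51.6% of all genes did, and their median log2 difference was -0.48 against -0.01 over all genes. In 4 of them, WRKY18, WRKY38, WRKY40 and WRKY53, all mutant arrays lay below all wild type arrays, as they did for 9.24% of all genes. The test across all genes called 2 of the 10, WRKY40 (adjusted p = 0.0184) and WRKY53 (adjusted p = 0.0219), both lower, where 0.155% of all genes were called lower and 0.342% in either direction. Nothing is read from these counts, since this comparison supplied the genes. Among the 8 members other than WRKY40 and WRKY53, 5 had a lower mean, the median was -0.26 and none was called by limma. Of these 8, 3 (37.5%) had an unadjusted p under 0.05, against 12.2% of all genes. Nothing is read from these counts either, since the set was chosen with these results known. All 10 were in the table and none was removed by a filter. Over the 6 arrays, 4 of the 10 had means under that of the median gene (3.80), WRKY46, WRKY53, WRKY60 and WRKY62, and 0 lay in the dimmest 25% of genes. No background values came with the tables used here, so the sizes of differences in these 4 are less certain.

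Both calls were lost in most fits with 1 array left out, each of which also has fewer arrays for the test. With limma WRKY40 had an adjusted p of 0.0747, 0.0609 and 0.0829 when mutant arrays 1, 2 and 3 were left out in turn, and of 0.0968 and 0.0621 when wild type arrays 2 and 3 were. Only without wild type replicate 1 did the call stay (0.0354). For WRKY53 the values were 0.0842, 0.0824 and 0.112 for the mutant arrays in the same order, and 0.0926 and 0.114 for wild type arrays 1 and 2. It stayed under the threshold without wild type replicate 3 (0.0408). The log2 differences with single arrays left out ranged from -1.57 to -1.33 for WRKY40 and from -1.28 to -1.09 for WRKY53. In wild type plants replicate 3 was the lowest array in 6 of the 10 genes and the highest in 1, WRKY40.

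**Figure D2:**
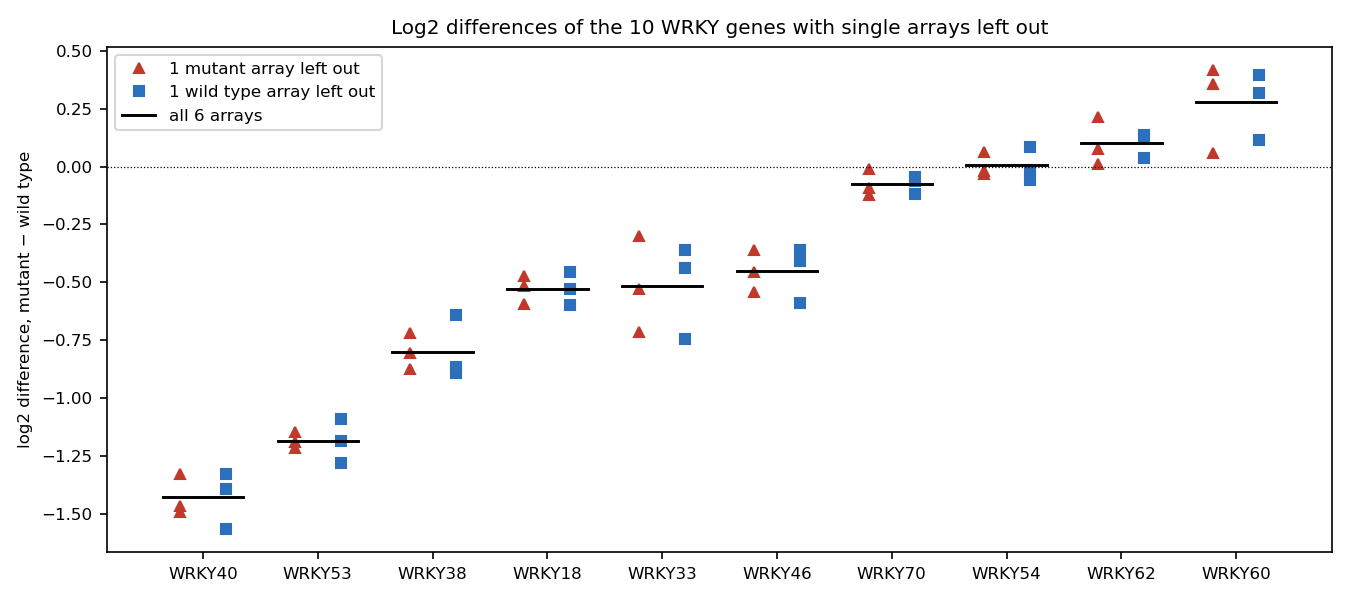
Log2 difference, mutant minus wild type (vertical axis), of each of the 10 WRKY genes with all 6 arrays (black lines) and with 1 mutant array (red triangles) or 1 wild type array (blue squares) left out. WRKY40 stays between -1.57 and -1.33 and WRKY53 between -1.28 and -1.09; WRKY33 has a wide range, from -0.75 to -0.30, and WRKY54 lies on both sides of 0.

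The other 62 WRKY genes were found by name in the reference gene table. Since the 10 were chosen with these results known, the 62 are the remainder of that choice and no independent comparison. They lay on both sides of 0. None of them was called by limma with all 6 arrays, and 10 (16.1%) had an unadjusted p under 0.05, 6 lower and 4 higher, where the share over all genes was 12.2%. Their median log2 difference was -0.02, with 34 lower and 28 higher in mean.

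The lowest log2 differences among them were those of WRKY15 (-0.71, SE 0.19, adjusted p = 0.187), WRKY50 (-0.70, SE 0.22, adjusted p = 0.254) and WRKY74 (-0.69, SE 0.19, adjusted p = 0.210). The mean of WRKY74 over the 6 arrays (2.01) lay in the dimmest 25% of genes. In WRKY15, which is known for limiting tolerance to salt and oxidative stress, the arrays were 4.94, 5.10 and 4.61 in the wild type against 4.24, 4.33 and 3.96 in the mutant, without overlap. The highest was WRKY26, a relative of WRKY33 that acts with WRKY25 and WRKY33 in heat tolerance. It had 6.17, 4.42 and 5.14 in the wild type against 6.49, 7.42 and 7.11 in the mutant, a log2 difference of 1.76 (SE 0.40, adjusted p = 0.131 in limma). The lines did not overlap, but the SD of the wild type arrays alone was 0.88, and without wild type replicate 1, the array nearest to the mutant, WRKY26 was called (adjusted p = 0.0498). Without each of the other 5 arrays its adjusted p lay between 0.168 and 0.328. WRKY25, for comparison, had a log2 difference of -0.03 (SE 0.18). WRKY63, listed as ABO3 and known for abscisic acid responses, had 0.63 (SE 0.25) and WRKY57 0.58 (SE 0.18), with adjusted p of 0.346 and 0.242. WRKY63, with a mean of 1.72, also lay in the dimmest 25% of genes.

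The 7 further WRKY genes assigned to group III here gave 3 lower and 4 higher means and a median of 0.03. Other WRKY genes, WRKY52 (RRS1) among them, were not assigned to a clade here and are not counted. The lowest was WRKY30, another gene induced by pathogens and by oxidative stress, at -0.65 (SE 0.16, adjusted p = 0.155), with 2.80, 2.92 and 2.99 in the wild type against 2.097, 2.32 and 2.35 in the mutant. All 7 had means under that of the median gene, and 5 lay in the dimmest 25% of genes, so low signal limits what they can show.

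**Figure D3:**
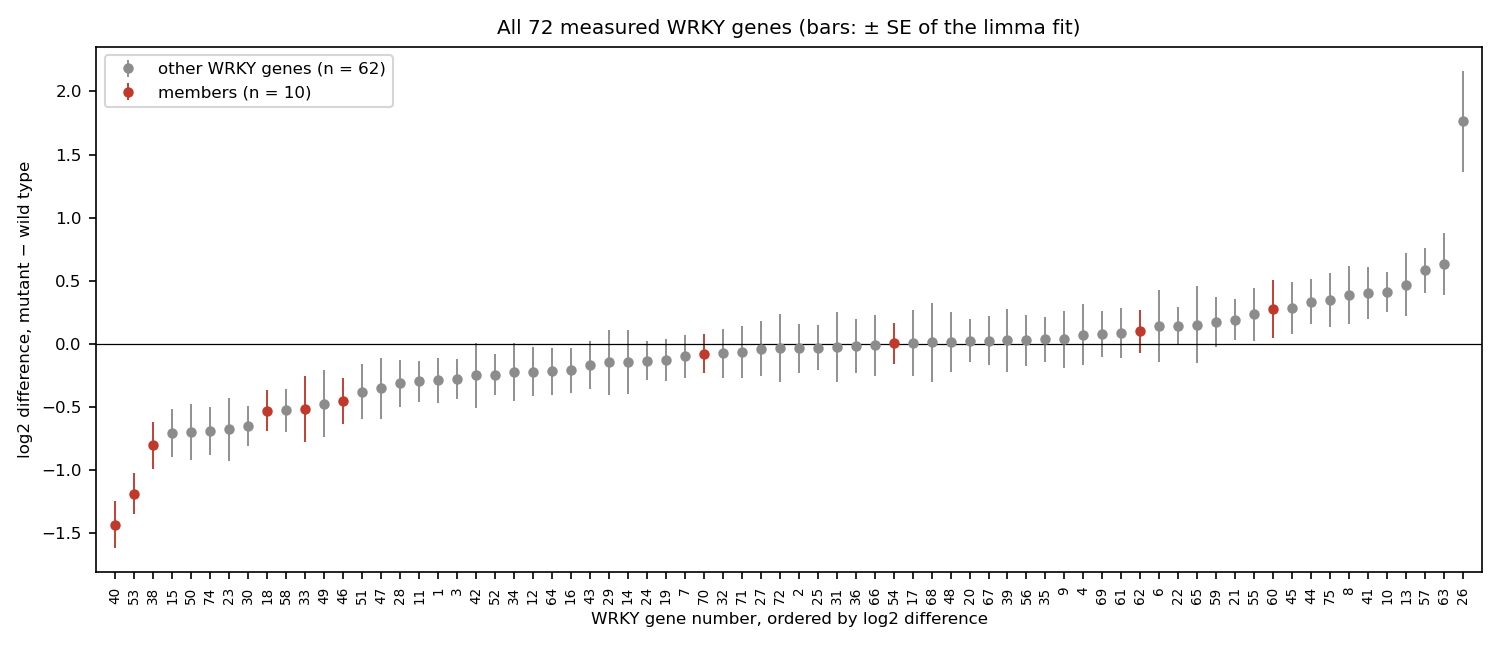
Log2 difference, mutant minus wild type (vertical axis), of all 72 measured WRKY genes in order of size (horizontal axis, by WRKY number), with the 10 genes described here in red, the other 62 in grey and bars of ± 1 SE. WRKY40, WRKY53 and WRKY38 are the lowest 3 of the family, WRKY60 lies among the higher values, and WRKY26 stands apart at 1.76.

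Genes that act upstream of, beside or under these WRKY factors were set beside them in 8 lists with 108 genes, all of them measured. Of the 108, 5 were called lower and 1 higher in the mutant, where 0.155% of all genes were called lower and 0.342% in either direction, and 32 (29.6%) had an unadjusted p under 0.05, against 12.2% of all genes. The median over the 108 was -0.08, against -0.01 over all genes. The lists were written with earlier results of these data known, and several of their genes had been reported from this comparison, so their counts are a description of these arrays.

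Upstream, the mitogen-activated protein kinase cascade that signals to WRKY33 and its relatives had no gene called out of 10, with a median of 0.02. An unadjusted p under 0.05 was found in 4 (40%), 1 lower and 3 higher, against 12.2% of all genes. MPK6 differed by 0.53 (SE 0.19, adjusted p = 0.300) and MPK11 by -0.62 (SE 0.21, adjusted p = 0.287), while MPK3 had 0.02 (SE 0.19). The largest difference of the list was that of MEKK1, 1.42 (SE 0.55, adjusted p = 0.341), with wild type arrays spread from 3.93 to 6.64. MKK5 had 0.48 (SE 0.21, adjusted p = 0.404). The proteins with a VQ motif bind WRKY factors, and none of the 7 in the list was called either. Among them 2 had an unadjusted p under 0.05, against 12.2% of all genes. MKS1, a partner of WRKY33, had 0.30 (SE 0.21), and SIB1 had -0.04 (SE 0.18). Just outside the threshold were 2 loci of that list that the reference table gives by code alone. AT2G22880 had 5.86, 5.39 and 4.64 in the wild type against 3.83, 2.52 and 3.02 in the mutant, a log2 difference of -2.18 (SE 0.37, adjusted p = 0.0503). AT1G78410 had -1.43 (SE 0.27, adjusted p = 0.0784). In both, the arrays of the lines did not overlap, and the differences were as large as or larger than that of WRKY40.

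Salicylic acid is the hormone that induces most of these WRKY genes. The list of 19 genes of its synthesis and signalling was written with these results known. Of the 19, 15 had a lower mean in the mutant (median -0.28), where 51.6% of all genes did. In the test 18 were not called and 1 was called lower, where 0.155% of all genes were. That gene was PR5, a pathogenesis-related protein, with 4.16, 4.59 and 4.61 in the wild type against 3.26, 3.39 and 3.28 in the mutant (log2 difference -1.14, SE 0.18, adjusted p = 0.0318). Its call stayed without wild type replicate 1 (0.0461) and ended without mutant replicate 1, 2 or 3 (0.129, 0.0944 and 0.149) and without wild type replicate 2 or 3 (0.141 and 0.0957). SARD1, an activator of salicylic acid synthesis, had -1.02 (SE 0.20, adjusted p = 0.0929) and PR1 had -0.83 (SE 0.19, adjusted p = 0.141). PR2 had 0.04 (SE 0.26) on low signal. ICS1, the synthesis enzyme itself, had 0.05 (SE 0.20), and the receptor gene NPR1 had -0.45 (SE 0.22), with overlap between the lines in both.

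Beside WRKY33 were set 11 genes listed under camalexin and ethylene synthesis, CYP82C2 and CYP82C4 among them. None was called by limma, and the median was -0.09. An unadjusted p under 0.05 was found in 2, against 12.2% of all genes. Whether WRKY33 acts on all 11 was not tested. ACS6, an enzyme of ethylene synthesis, had 6.30, 6.10 and 6.73 in the wild type against 5.32, 5.52 and 5.47 in the mutant. Its log2 difference was -0.94 (SE 0.19, adjusted p = 0.101). CYP71A12 of the camalexin pathway had -0.48 (SE 0.20, adjusted p = 0.381), and PAD3, the last enzyme of that pathway, had -0.19 (SE 0.20), both on low signal.

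Leaf senescence genes, set beside WRKY53, WRKY54 and WRKY70, went both ways. None of 18 was called by limma, and the median was 0.08. An unadjusted p under 0.05 was found in 5, 3 lower and 2 higher, against 12.2% of all genes. SAG21, a small protein of the late embryogenesis abundant family, had 4.74, 4.51 and 4.54 in the wild type against 3.70 on each mutant array, a log2 difference of -0.90 (SE 0.15, adjusted p = 0.0511). SAG14, a blue copper binding protein, had -1.25 (SE 0.22, adjusted p = 0.0550). The cysteine protease gene SAG12, a late marker of senescence that WRKY53 is known to bind, had 0.27 (SE 0.21) on low signal, between 1.43 and 2.26 over the 6 arrays. PAO, a chlorophyll breakdown enzyme, had 0.57 (SE 0.17, adjusted p = 0.229).

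The rapid stress response list held most of the called genes, with 4 of 17 called lower, 13 not called and 16 lower in mean (median -0.58). Over all genes 0.155% were called lower and 51.6% were lower in mean, and the list was written with these results known. ERF6, of the ethylene response factor family, fell from 5.00, 5.70 and 5.14 in the wild type to 3.29, 3.49 and 3.11 in the mutant, a log2 difference of -1.98 (SE 0.21, adjusted p = 0.00955). Its relative ERF105 (-1.59, SE 0.22, adjusted p = 0.0219), the zinc finger gene SZF1 (-1.15, SE 0.17, adjusted p = 0.0261) and the zinc finger gene ZAT10 (-1.17, SE 0.20, adjusted p = 0.0491) fell as well. With single arrays left out, ERF6 was not called without mutant replicate 3 (0.0593) and was called in the other 5 fits. ERF105 and SZF1 were called without wild type replicate 3 alone (0.0316 and 0.0489), with adjusted p between 0.0629 and 0.117 and between 0.0889 and 0.128 in the other fits, and ZAT10 in none of the 6 (0.0912 to 0.188). Their log2 differences stayed below -1.02 in all these fits. WRKY40 and WRKY53 had log2 differences within the range of these 4 genes.

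In the jasmonate list 1 of 13 genes was called, where 0.342% of all genes were called in either direction. The gene called was the plant defensin gene PDF1.2b, which rose by 4.60 (SE 0.38, adjusted p = 0.00514) from a dim wild type level of 1.45, 2.105 and 1.71. Its near-identical relative PDF1.2a had 1.41 (SE 0.33, adjusted p = 0.139), and which copy gave the signal is uncertain. PDF1.2b was called without each array in turn. The other 12 genes were not called, 7 of the 13 were higher in mean and the median was 0.17. Abscisic acid and drought genes, set beside the group IIa trio, had a median of 0.16 with none of 13 called by limma. Among them 2 had an unadjusted p under 0.05, against 12.2% of all genes. RD20, a calcium binding protein of lipid droplets, had 0.54 (SE 0.15, adjusted p = 0.219) and RD29A had 0.63 (SE 0.26, adjusted p = 0.370).

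**Figure D4:**
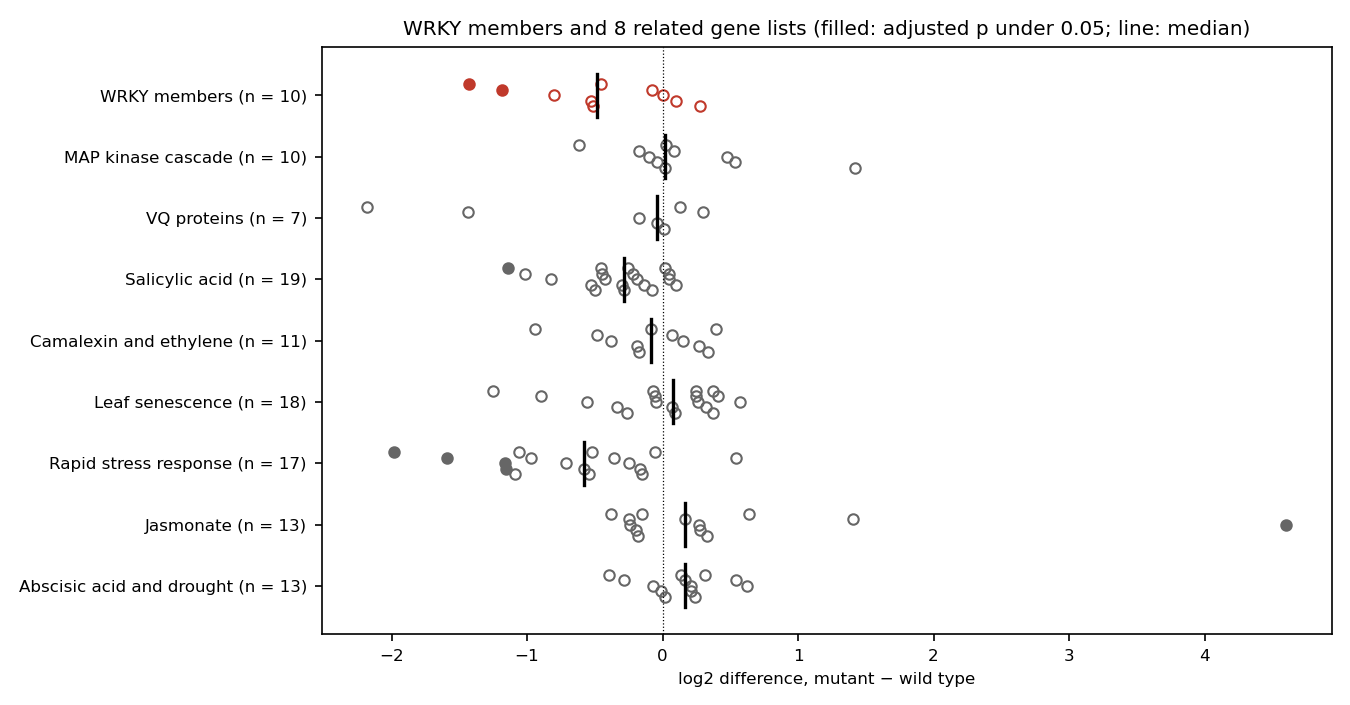
Log2 difference, mutant minus wild type (horizontal axis), of each gene in the WRKY set (red) and in 8 related lists (grey); filled points have an adjusted p under 0.05 and black lines mark medians. The WRKY set and the rapid stress response have medians of -0.48 and -0.58, the jasmonate list holds the outlying PDF1.2b at 4.60, and the medians of the other lists lie between -0.28 and 0.17.

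The genes whose array profile was most like that of WRKY40 and WRKY53 were found by the root mean square difference between profiles over the 6 arrays, each centred on its own mean, among 28377 genes. Such a measure uses the difference between the lines, so genes with a similar fold change come first. Nearest to WRKY40 were AT1G31690 (difference 0.11), PBP1 (0.17), a calcium binding protein that interacts with the kinase PINOID, PR5 (0.17), AT2G44400 (0.17) and ACS11 (0.19), an enzyme gene of ethylene synthesis. The median gene differed from WRKY40 by 0.76. AT1G31690 had 6.69, 7.06 and 6.95 in the wild type against 5.24, 5.41 and 5.40 in the mutant, and shared with WRKY40 the low replicate 1 in both lines. Nearest to WRKY53 were MES7 (0.06), a methyl esterase gene whose product acts on methyl salicylate, the cyclin gene CYCA2;3 (0.09), AT3G22275 (0.10), SZF1 (0.12) and AT1G18540 (0.13), and the median gene differed by 0.64. MES7 had 4.72, 4.84 and 4.46 in the wild type against 3.55, 3.30 and 3.39 in the mutant, with the arrays of each line in the same order as for WRKY53. Among the 10 genes themselves, WRKY53 was closest to WRKY38 (0.21) and then to WRKY40 (0.27), and WRKY40 was farthest from its clade partner WRKY60 (0.93).

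**Figure D5:**
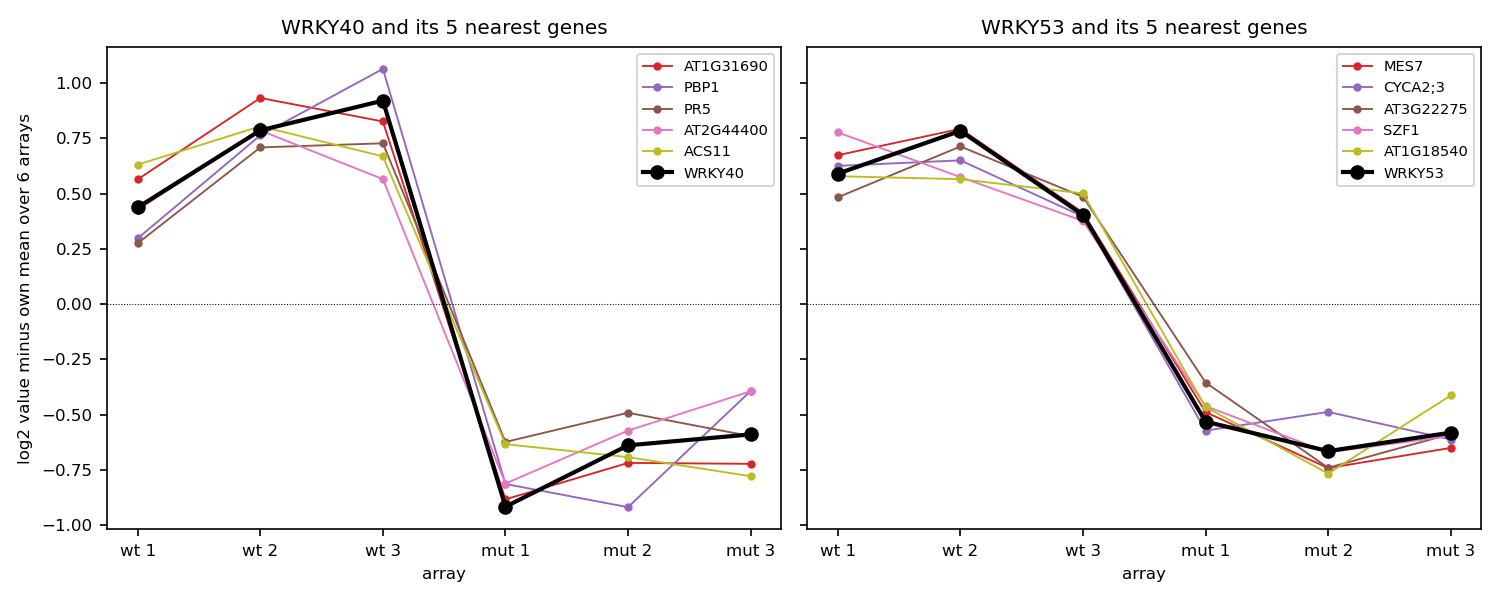
Log2 values minus each gene's own mean (vertical axis) on the 3 wild type and 3 mutant arrays for WRKY40 (left, black) and WRKY53 (right, black) with the 5 nearest other genes of each in colour; lines join the arrays of a gene and imply no order. WRKY40 is lowest on replicate 1 of both lines, and WRKY53 is highest on wild type replicate 2, patterns that several of the nearest genes share.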

How the data were processed

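Leaf RNA of 3 mutant and 3 wild type pools was labelled with biotin and measured on Affymetrix arrays, per the labels. The authors deposited log2 values, 1 per AGI locus code and array for 28387 genes, and a second table with 1 value per probe set, taken as log2 from its range. RMA and Partek are named in the submitters' processing notes. Probe grouping, genome build and scan dates (not given in the sources used here) stay unknown; no batch could therefore be tested, and a different grouping of probes could change a fold change. The number of arrays limits the precision: across genes the SE of a log2 difference had a median of 0.19.

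All genes entered one linear model of line in limma 3.58.1 (R 4.3.3), with empirical Bayes moderation, two-sided tests without covariates, p-values adjusted by Benjamini-Hochberg across the table and called under 0.05; the fit was checked on simulated data. No filter was applied. Names came from a RefSeq table of TAIR10.1, which held 27681 of the genes. Of 38408 probe sets, 16670 were used with 1 gene name, 52 had 1 name that matched no locus, 759 had several names and 20927 none here. They named 0 of the 10 WRKY genes, 7 other WRKY genes and 11 list genes. The members, lists and tests were chosen with earlier results of these data known. The genes named were the 10 members, any other WRKY or list gene past the threshold, the 3 highest and 3 lowest other WRKY genes, the 2 genes with the smallest p in lists without a call, and the 5 nearest profiles. Other genes named, and the grouping of WRKY genes into clades, were chosen after their values were seen.

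Same-numbered arrays of the lines shared little: their deviations from the line means correlated by 0.01, 0.05 and 0.07 over genes, so the replicate number was taken as no pairing. Alternatives were the probe-set table, other filters, moderation, weights, scaling, thresholds, a replicate block and single arrays left out. Figures were drawn with matplotlib 3.10.9.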

Additional observations from a re-analysis of the deposited data

How the results depend on the processing

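Of 136 alternative log2 differences of the 10 WRKY genes, 135 lay within 1 pooled SD of the reported value and no called value changed sign. The exception was WRKY70 with quantile normalization again (-0.17). Most of the 136 could not have moved so far. The filters, the changes of moderation and the replicate block leave a log2 difference as it is. Leaving out 1 array of a line cannot shift it by a full pooled SD. Only array weights, quantile normalization again and equal array medians could, so nothing is read from the count of 135. The count of 2 members called lower became 1 with the dimmest 50% of genes left out, which removed WRKY53, 1 with the replicate block, 0 without moderation of the spread and 0 at a threshold of 0.01. It ranged from 0 to 1 with single arrays left out. The replicate block kept WRKY40 (adjusted p = 0.0339) and not WRKY53 (0.0646). It gave 0 other WRKY genes and 5 list genes: 3 of the 6 calls (PDF1.2b, ERF6 and ERF105) were kept, PR5 (0.0695), SZF1 (0.0635) and ZAT10 (0.108) were lost, and AT2G22880 (0.0339) and AT1G78410 (0.0366) were added. In deviations from the line means 5 of the 6 arrays correlated best with the array of their own number in the other line, wild type replicate 1 being the exception, a hint from the data and not from the design. The 0 calls among the other WRKY genes became 1, WRKY26, without wild type replicate 1, and ranged from 0 to 1. The 6 list genes called became 2 in the probe-set table, where 11 were named, 12 with the dimmest 50% left out, 15 with trend and robust fitting, 0 without moderation, 12 with array weights, 2 at a threshold of 0.01 and 14 at 0.1. They ranged from 1 without mutant replicate 3 to 6 without wild type replicate 3. Causes were not tested, beyond fewer genes or arrays in some fits. The probe-set table gave no value for the 10 WRKY genes. Dim signal without background values limits WRKY46, WRKY53, WRKY60 and WRKY62.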
